A study of Mus musculus with 6 samples.

Results

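The E2F transcription factors and the Rb family genes that restrain them were followed in embryonic mouse cortical cells after knockdown of Ybx1, an RNA-binding protein that reads the m5C mark. The group consisted of 10 genes, E2f1 to E2f8, Rb1 and Rbl1, taken by gene symbol from a table of 17920 genes. All 10 were listed, all 10 passed the filter on low counts together with 13669 genes in total, and all had whole-number estimated counts in the 6 libraries. RNA-seq had been run on 3 control libraries (Ctrl 1 to Ctrl 3, genotype WT in the labels) and 3 knockdown libraries (KD 1 to KD 3), with the same 3 replicate numbers in each group. By their titles the samples are E13.5 cortex (E, embryonic day), and the series text mentions a deletion of Ybx1. According to the study's methods, however, cells dissociated from E13.5 cortex were cultured and infected with lentivirus. The virus carried a control or a Ybx1 hairpin under puromycin selection, so both groups were infected and drug-selected cells in culture. A pair of Ybx1 hairpins is described without saying which was used, and Rbl2, the remaining Rb family gene, is not among the 10 genes and is given with their partners.

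E2F factors bind, mostly together with a DP partner (Tfdp1 or Tfdp2), to the promoters of genes needed for DNA synthesis and mitosis. The activators E2f1, E2f2 and E2f3 drive these genes when a cell passes from the G1 to the S phase. E2f4 and E2f5 act mainly as repressors with Rb family proteins, E2f6 represses as part of a Polycomb complex without binding Rb proteins, and E2f7 and E2f8 repress without a DP partner. Rb1 binds chiefly the activators and Rbl1 (p107) chiefly E2f4 and E2f5, until cyclin-dependent kinases phosphorylate the Rb proteins and set the E2Fs free. In the embryonic cortex these genes are known for controlling how progenitors cycle and leave the cycle to become neurons. The comparison of KD with Ctrl asked how transcripts of this circuit differed when Ybx1 was reduced, in a study concerned with the cycle of cortical progenitors.

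E2F genes are themselves known as E2F targets. The promoter sequences below are shown because letters of an E2F site were found in 4 of the promoter windows. Promoter windows of 300 bases, 250 before to 50 after the annotated start, were read from RefSeq on GRCm38.p6, and 7 of the 10 genes had at least 1 window (9 windows in all). E2f4, E2f5 and Rb1 had no entry. The letters searched on both strands were TTTCCCGC, TTTCGCGC, TTTGCCGC and TTTGGCGC for an E2F site, and TTTGAA and TTCGAA for a CHR element, the cell cycle homology region bound by MuvB. No matches in these windows overlapped each other. E2F letters were found in a window of Rbl1, E2f2, E2f3 and E2f7, that is in 4 of the 9 windows, and in 2.26% of all 32851 windows and 3.87% of the 14017 windows of tested genes. In capitals are the E2F letters, and in E2f3 also the CHR letters. The first line gives the 100 bases before the start of Rbl1 (chr2:157204535-157204634, minus strand) and the second those of E2f3 (chr13:29986064-29986163, minus strand). Neither overlaps a GENCODE exon of its own gene, and exons of other genes were not searched. The last lines give 30 bases around the match of E2f2 (chr4:136172294-136172323, plus strand) and of E2f7 (chr10:110745230-110745259, plus strand).
Rbl1: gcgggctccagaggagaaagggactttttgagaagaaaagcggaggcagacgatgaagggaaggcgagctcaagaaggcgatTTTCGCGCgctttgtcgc
E2f3: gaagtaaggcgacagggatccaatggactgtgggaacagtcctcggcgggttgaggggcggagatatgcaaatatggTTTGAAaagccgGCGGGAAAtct
E2f2: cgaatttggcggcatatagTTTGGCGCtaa
E2f7: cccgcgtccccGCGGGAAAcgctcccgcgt

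The Rbl1 letters began 18 bases before the start, those of E2f3 11 bases before it and those of E2f7 198 bases before it, and the E2f2 letters began at base 40 counted from the start as base 1. In E2f3 and E2f7 the match lay on the strand opposite to the gene, so that the capitals read as its reverse complement. CHR letters were found in E2f3, in E2f8 and in the second window of E2f2, against 19.2% of all windows and 13.6% of those of tested genes. The E2f8 match (chr7:48881599-48881628, minus strand) is shown because the E2f8 window held CHR letters and no E2F letters.
E2f8: gagcgggttaatTTCAAAtcgggggctgga

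The windows of E2f1 and E2f6 held none of these letters. The start site used for the E2f1 window lay 466 bases, and that for the E2f8 window 477 bases, inside the outer end of the RefSeq gene, so the outer end of these genes was not searched. These matches describe the letters of the windows, and binding was not measured.

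The libraries held between 16294635 and 16497505 estimated counts. Ybx1 itself checked the labels: it stood at 641, 630 and 687 TPM (a transcript's share of the library, corrected for its length) in Ctrl 1 to Ctrl 3 and at 106, 100 and 168 TPM in KD 1 to KD 3 (log2 -2.43, SE 0.18, edgeR adjusted p = 1.8e-04). Neuron markers summed to 4904 to 5610 TPM in Ctrl and 4808 to 5606 TPM in KD. Radial glia markers summed to 3075 to 3442 and 3493 to 3781 TPM, so that markers of both cell types were detected in all libraries. Of 9 neuron markers, 1 was higher and 1 lower (4 and 1 with the replicate number as a block). Every KD library had the higher radial glia sum, with 2 of 9 genes higher, Pax6 and Hes1 (5 with the block). Fabp7 made up most of that sum (mean 2582 TPM in Ctrl and 2777 TPM in KD). It was not called (log2 0.045, adjusted p = 0.601). Over all genes, 12% were higher and 11.9% lower (18.6% and 18.1% with the block). Intermediate progenitor markers summed to 65.6 to 87.4 TPM in Ctrl and 136 to 160 TPM in KD, with 4 of 6 genes higher (6 with the replicate block). Interneuron markers were also present, at 458 to 677 and 493 to 758 TPM with 1 of 6 higher (with the block 2 higher and 1 lower). In RNA from whole cultures, fewer cells of a type and less RNA per cell cannot be told apart. Unless stated otherwise, adjusted p-values are those of the edgeR quasi-likelihood F test, corrected after Benjamini and Hochberg over all 13669 genes tested, log2 fold changes are KD over Ctrl on the CPM scale (counts scaled to library size), and a gene is called when its adjusted p is under 0.05.

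Rb1, Rbl1 and the activator E2f2 rose, the activator E2f3 fell, and E2f1 and all 5 repressors E2f4 to E2f8 did not pass the threshold. At an unadjusted p under 0.05, 1 of the repressors (E2f7, higher) would have counted, and DESeq2 and the limma fits also called 0 of the 5. Thus 3 of the 10 genes were higher, where 12% of all tested genes were (1646 of 13669), and 1 of 10 was lower, where 11.9% were. In CPM, the 3 KD libraries lay above the 3 Ctrl libraries for 5 of the 10 genes (E2f2, E2f4, E2f7, Rb1 and Rbl1), against 21.0% of all genes, and below them for E2f3 alone, against 20.6%. The median log2 fold change was 0.10 over the 10 genes, with 7 above 0, and -0.001 over all genes. Without KD 1 the median of the 10 genes was 0.007, with 5 above 0.

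The control levels spanned a wide range. On the TPM scale, which allows genes to be compared, E2f4 was the highest E2F (43.4 ± 1.67 TPM, SD, n = 3) and stood above 69% of the tested genes, while E2f2 was the lowest (2.16 ± 0.201 TPM) and stood above 10.9% of them. Between them followed E2f6 at 26.6, Rb1 at 26.4, E2f5 at 22.6, E2f3 at 14.8, E2f1 at 10.2, Rbl1 at 6.89, E2f8 at 4.90 and E2f7 at 2.81 TPM. E2f6 and Rb1 overlapped between libraries, whereas every other pair of neighbours in this order was separated in all 3 Ctrl libraries. In KD, Rb1 (34.4 ± 0.910 TPM) stood above E2f6 (24.7 ± 2.99 TPM) in every library, while the ranges of E2f3 and E2f1 overlapped, as did those of E2f1 and Rbl1, of E2f6 and E2f5, of E2f8 and E2f7 and of E2f7 and E2f2.

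**Figure D1:**
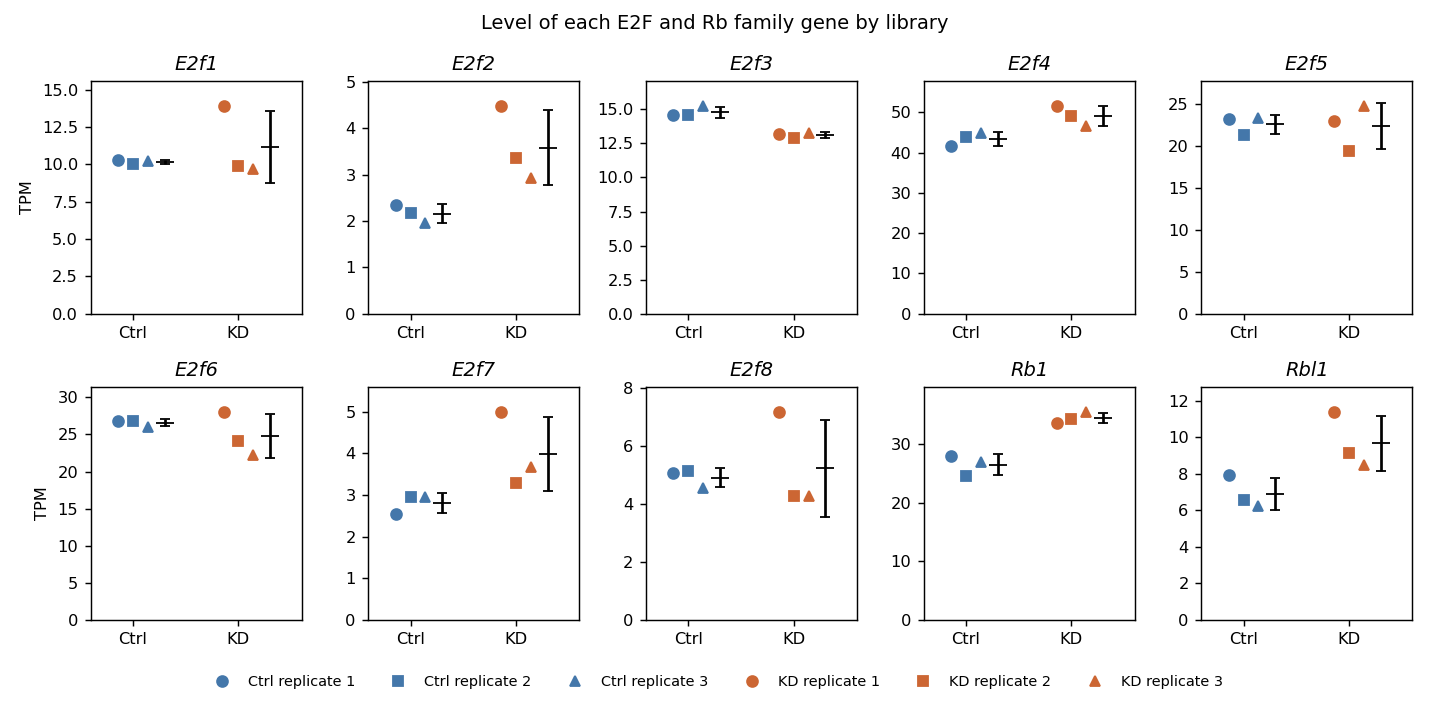
Level of each of the 10 genes in TPM (vertical axes, each from 0) in the 3 Ctrl and 3 KD libraries, with symbols for the replicate number and the mean ± SD in black. The KD points of Rb1 (33.63 to 35.42 TPM) all lie above the Ctrl points (24.46 to 27.94 TPM), and KD 1 stands alone at the top for E2f1 and E2f8.

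Among the activators, E2f2 and E2f3 moved in opposite directions. E2f2 (chr4:136172274-136196057, plus strand, GRCm38.p6) stood at 2.35, 2.18 and 1.95 TPM in Ctrl 1 to Ctrl 3 and at 4.48, 3.35 and 2.92 TPM in KD 1 to KD 3, from 71 to 84 counts in Ctrl and 105 to 150 in KD. Every KD library lay above every Ctrl library, with KD 1 the highest. The gene rose 1.56-fold (log2 0.64, SE 0.16, 95% interval 0.28 to 1.0, adjusted p = 0.0212). Its adjusted p was 0.0652 without Ctrl 2, 0.0545 without Ctrl 3, 0.0613 without KD 1 and 0.057 without KD 2, with log2 fold changes of 0.49 to 0.67, so at this depth the call needed these libraries.

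E2f3 (chr13:29906575-29986064, minus strand), the most abundant activator, stood at 14.55, 14.55 and 15.25 TPM in Ctrl and at 13.2, 12.89 and 13.24 TPM in KD. The groups did not overlap and the spread within each was small. The gene fell to 0.866 of the control level (log2 -0.21, SE 0.06, 95% interval -0.34 to -0.07, adjusted p = 0.0336). The decrease was close to the threshold: the adjusted p was 0.0667, 0.0979 and 0.0673 without Ctrl 1, 2 and 3, 0.0789, 0.121 and 0.0506 without KD 1, 2 and 3, and 0.13 with DESeq2, with a log2 fold change of -0.19 to -0.23 throughout.

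E2f1 stood at 10.27, 10.02 and 10.22 TPM in Ctrl and at 13.92, 9.87 and 9.72 TPM in KD. KD 1 was above and the other KD libraries below all Ctrl libraries, so the groups overlapped. No change was detected (log2 0.08, SE 0.14, 95% interval -0.24 to 0.41, adjusted p = 0.706), and without KD 1 the value was -0.10 (adjusted p = 0.561).

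The repressors with Rb partners were the most abundant E2Fs together with E2f6. E2f4 stood at 41.6, 43.83 and 44.87 TPM in Ctrl and at 51.61, 49.08 and 46.74 TPM in KD. The KD libraries lay above the Ctrl libraries but the difference was small and did not pass the threshold (log2 0.12, SE 0.06, 95% interval -0.01 to 0.26, adjusted p = 0.158). E2f5 stood at 23.22, 21.3 and 23.33 TPM in Ctrl and at 22.99, 19.4 and 24.81 TPM in KD. These groups overlapped (log2 -0.07, SE 0.11, 95% interval -0.32 to 0.19, adjusted p = 0.696).

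E2f6, the Polycomb-linked repressor, stood at 26.82, 26.84 and 26.04 TPM in Ctrl and at 28.01, 24.05 and 22.16 TPM in KD. In TPM, KD 1 was the highest of the 6 libraries and KD 3 the lowest, whereas in CPM KD 1 (29.6) lay below Ctrl 2 (29.8). No change was called for E2f6 (log2 -0.14, SE 0.09, 95% interval -0.33 to 0.05, adjusted p = 0.262). Within replicate numbers the log2 ratio was 0.01, -0.24 and -0.20, and the fitted value was -0.23 (adjusted p = 0.0698) without KD 1 and -0.08 (adjusted p = 0.561) without KD 3.

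The atypical repressors E2f7 and E2f8, which switch off E2F targets late in S phase, showed the widest spread. E2f7 stood at 2.54, 2.96 and 2.94 TPM in Ctrl and at 4.99, 3.29 and 3.67 TPM in KD, all KD above all Ctrl with KD 1 well above the rest. Its difference did not pass the threshold (log2 0.44, SE 0.17, 95% interval 0.07 to 0.82, adjusted p = 0.084) but did with the replicate number as a block (log2 0.43, SE 0.15, adjusted p = 0.0329). Without KD 1 its value was 0.26 (adjusted p = 0.249). With the block, 4 of the 10 genes were higher (E2f7 beside E2f2, Rb1 and Rbl1), where 18.6% of all genes were, and E2f3 was lower, where 18.1% were. E2f8 stood at 5.06, 5.12 and 4.53 TPM in Ctrl and at 7.16, 4.26 and 4.27 TPM in KD. KD 1 was again above and the other KD libraries below the Ctrl libraries (log2 0.04, SE 0.20, 95% interval -0.41 to 0.49, adjusted p = 0.905), and without KD 1 the value was -0.24 (adjusted p = 0.279).

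The Rb family genes rose. Rb1 (chr14:73192858-73325951, minus strand) stood at 27.94, 24.46 and 26.94 TPM in Ctrl and at 33.63, 34.24 and 35.42 TPM in KD. The groups were well separated, and the gene rose 1.26-fold (log2 0.33, SE 0.06, 95% interval 0.19 to 0.47, adjusted p = 0.00677). It was called with each single library left out, and lost its call (adjusted p = 0.109) when Ctrl 2 and KD 2 were both left out. Rbl1 (chr2:157145893-157204534, minus strand) stood at 7.91, 6.54 and 6.23 TPM in Ctrl and at 11.37, 9.12 and 8.48 TPM in KD. In both groups library 1 was the highest, yet every KD library was above every Ctrl library.

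Rbl1 rose 1.37-fold (log2 0.46, SE 0.14, 95% interval 0.13 to 0.78, adjusted p = 0.0492), just inside the threshold. Its adjusted p was 0.138 without Ctrl 2, 0.122 without Ctrl 3, 0.148 without KD 1, 0.0628 without KD 2 and 0.0663 without KD 3. Within the replicate numbers the log2 ratio was 0.51, 0.31 and 0.54. The promoter of this gene is the one shown above with TTTCGCGC 18 bases before the start. Of the other genes with E2F letters, E2f2 rose, E2f3 fell and E2f7 was not called. Any part of the letters in these changes was not tested.

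**Figure D2:**
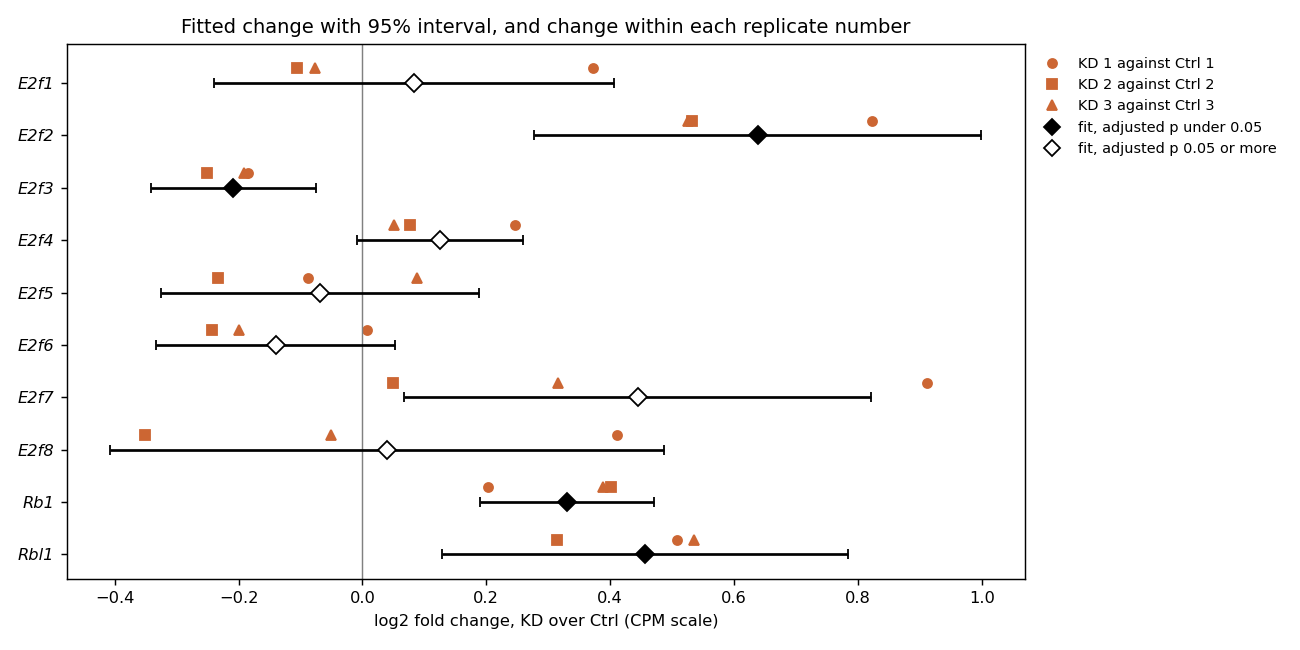
Fitted log2 fold change of each gene, KD over Ctrl (diamonds, filled where the adjusted p is under 0.05), with its 95% interval, and above each the log2 ratio within replicate numbers 1 to 3 (symbols). The 3 ratios of E2f2, E2f4, E2f7, Rb1 and Rbl1 lie to the right of 0 and those of E2f3 to the left. For E2f8 they range from -0.35 to 0.41.

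Summed over a class, the activators did not differ between the groups beyond the spread. E2f1 to E2f3 summed to 27.17, 26.75 and 27.42 TPM in Ctrl and to 31.6, 26.11 and 25.88 TPM in KD, and E2f4 to E2f8 to 99.24, 100 and 101.7 and to 114.8, 100.1 and 101.6 TPM. The activators thus made up 21.3 ± 0.202% of the E2F transcripts in Ctrl and 20.9 ± 0.665% in KD (SD, n = 3), and their ratio to the repressors was 0.270 ± 0.00326 and 0.264 ± 0.0106, with overlapping groups. The log2 ratio of KD over Ctrl was -0.04, and -0.07 without KD 1 or -0.01 without KD 3. On the CPM scale, where longer transcripts weigh more, the ratio was 0.512 ± 0.00831 in Ctrl and 0.488 ± 0.00671 in KD and the groups did not overlap. The Rb family summed to 51.7 ± 2.41 TPM in Ctrl and 67.8 ± 0.305 TPM in KD with Rbl2 included, and the KD libraries lay above.

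**Figure D3:**
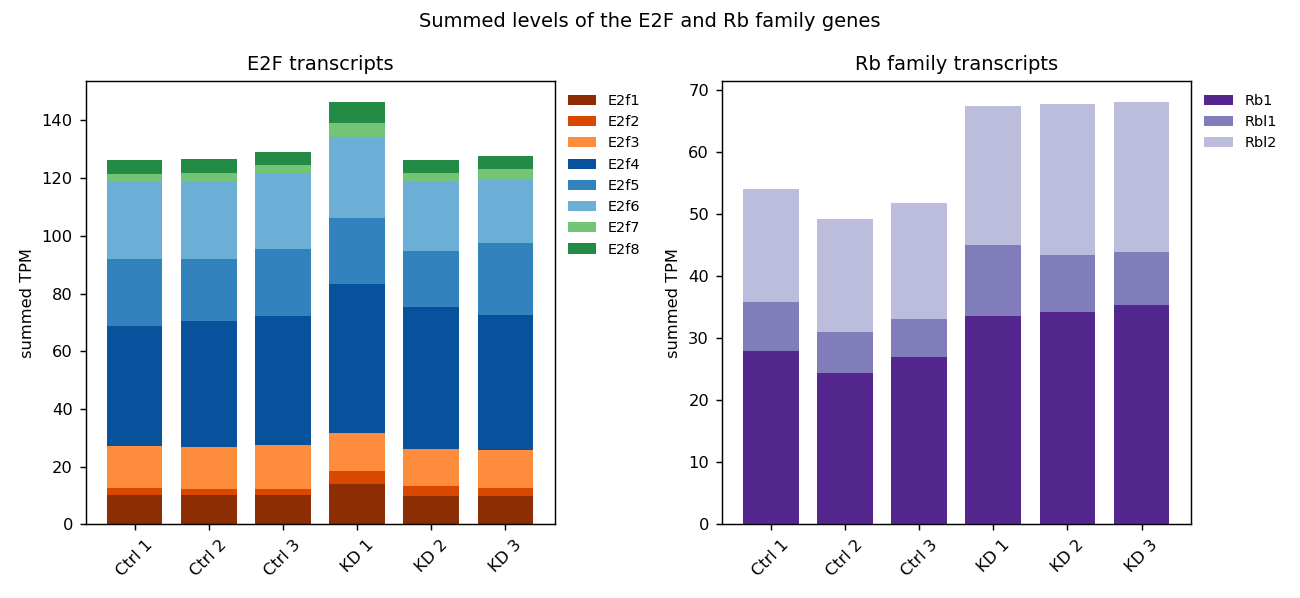
Summed TPM per library, from 0, of E2f1 to E2f8 (left, activators in orange shades, E2f4 to E2f6 in blue, E2f7 and E2f8 in green) and of Rb1, Rbl1 and Rbl2 (right). KD 1 has the tallest E2F bar, and the 3 KD bars of the Rb family (67.46 to 68.07 TPM) stand above the Ctrl bars (49.24 to 54.06 TPM).

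Of 11 E2F partners and MuvB genes, 5 were higher (Rbl2, Rbbp4, Foxm1, Mybl1 and Tfdp2) and 1 lower (Tfdp1), with a median log2 fold change of 0.26, where 12% of all genes were higher and 11.9% lower. Without Ctrl 1 or without KD 1, 3 of the 11 were higher, where 8.35% and 7.96% of all genes were. With the replicate block, 6 were higher and 1 lower, where 18.6% and 18.1% of all genes were. Rbl2 (p130), the third Rb family gene, stood at 18.21, 18.24 and 18.7 TPM in Ctrl and at 22.46, 24.41 and 24.17 TPM in KD. It rose (log2 0.31, SE 0.06, adjusted p = 0.00605), but its counts were fractional in all 6 libraries, so part of its reads may belong to similar genes. The main DP partner Tfdp1 fell, from 98.3 ± 2.10 to 82.2 ± 3.07 TPM (log2 -0.31, adjusted p = 0.00247), whereas Tfdp2 rose (log2 0.35, adjusted p = 0.0311). Rbbp4, the histone-binding MuvB subunit (log2 0.26, adjusted p = 0.00336, fractional counts), and Foxm1, which takes over MuvB targets in mitosis (log2 0.50, adjusted p = 0.00484), also rose. Lin9, Lin37, Lin52 and Lin54, the other MuvB genes, were not called.

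Of 15 genes upstream of Rb, which act in opposite ways on the Rb proteins, 5 were higher and 3 lower, with a median of 0.10, beside the same 12% and 11.9% of all genes. The median was 0.22 without KD 2 and 0.21 without Ctrl 3. Without Ctrl 2 the calls were 3 higher and 1 lower, where 5.65% and 5.78% of all genes were. Without KD 2 they were 5 and 1, where 6.4% and 6.15% of all genes were. With the replicate block they were 6 and 3, where 18.6% and 18.1% were. Cdk4 (log2 0.35, adjusted p = 0.00292) and Cdk6 (log2 1.06, adjusted p = 0.00452), the G1 kinases that phosphorylate Rb proteins, rose, as did Cdk2 (log2 0.51, adjusted p = 0.0158). The D-type cyclin gene Ccnd2 stood at 145, 161 and 181 CPM in Ctrl and at 227.7, 194.5 and 199.5 CPM in KD, with no overlap, and rose (log2 0.35, SE 0.09, adjusted p = 0.0211). Of the kinase inhibitors, Cdkn1a (p21) fell by 0.86 on the log2 scale (adjusted p = 0.000688), Cdkn1b (p27) rose by 0.37 (adjusted p = 0.0012), and Cdkn1c and Cdkn2d also fell. Of 8 genes of the E2f6 complex, 2 were higher and 1 lower, where 12% of all genes were higher and 11.9% lower. Cbx3 (log2 0.35, adjusted p = 0.00241) and Rnf2 (log2 0.31, adjusted p = 0.00501) rose. Rybp fell (log2 -0.21, adjusted p = 0.0327), a call lost without Ctrl 1, Ctrl 2, KD 2 or KD 3. The Rybp call was also lost with scaling by library totals only and with limma-trend on TPM. The others were not called, with Ring1 at 0.19 (adjusted p = 0.175). Among 5 germline genes known to be silenced by E2f6, Stag3 alone passed the filter (log2 0.29, adjusted p = 0.131), and Slc25a31 and Smc1b reached at most 2 and 7 counts in any library.

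Genes that E2Fs control showed more calls upward than downward. Of 45 E2F targets of the G1 to S step, 21 were higher and 0 lower, with 43 fitted values above 0 and a median of 0.32, and of 32 late targets of the DREAM complex 11 were higher and 0 lower, with 32 above 0 and a median of 0.41. The background is 12% of genes higher and 11.9% lower. In neither list was a gene lower at an unadjusted p under 0.05, and DESeq2 and the limma fits also called 0 lower. The replication helicase genes Mcm7 (log2 0.62, adjusted p = 0.00127), Mcm6 (log2 0.64, adjusted p = 0.0052) and Mcm2 (log2 0.46, adjusted p = 0.0111) and the sliding clamp gene Pcna (log2 0.43, adjusted p = 0.0026) had the smallest p-values of the first list. In the second, these were the proliferation marker Mki67 (log2 0.65, adjusted p = 0.00885), the cyclin gene Ccna2 (log2 0.57, adjusted p = 0.015, fractional counts), the topoisomerase gene Top2a (log2 0.62, adjusted p = 0.0158) and the checkpoint kinase gene Bub1b (log2 0.59, adjusted p = 0.0223). The cyclin E genes Ccne1 (log2 -0.12, adjusted p = 0.605) and Ccne2 (log2 0.64, adjusted p = 0.0911), which stand in the first list and upstream of Rb, were not called.

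These counts varied when single libraries were left out. Without Ctrl 2, Ctrl 3 or KD 1, the number of G1 to S targets called higher was 6, 10 and 10. That of late targets was 2, 4 and 4, where 5.65%, 11.7% and 7.96% of all genes were higher. Without Ctrl 1, KD 2 or KD 3, the G1 to S targets numbered 19, 14 and 16. The late targets then numbered 12, 6 and 13, where 8.35%, 6.4% and 9.4% of all genes were higher. With the replicate block, 31 G1 to S targets and 28 late targets were higher, where 18.6% of all genes were. The median of the late targets was 0.23 without KD 1, with 30 of 32 above 0. Relative to the mean of Ctrl, the median of the late targets was 0.20, 0.005 and -0.17 in Ctrl 1 to Ctrl 3 and 0.72, 0.31 and 0.21 in KD 1 to KD 3 on the log2 scale, so KD 1 was the highest of all and Ctrl 1 came close to KD 3. The median of the radial glia markers in KD 1, 0.47 against 0.09 and 0.15 in KD 2 and KD 3, stood high in the same library as E2f1, E2f7 and E2f8. The part of progenitor content in these values was not tested.

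**Figure D4:**
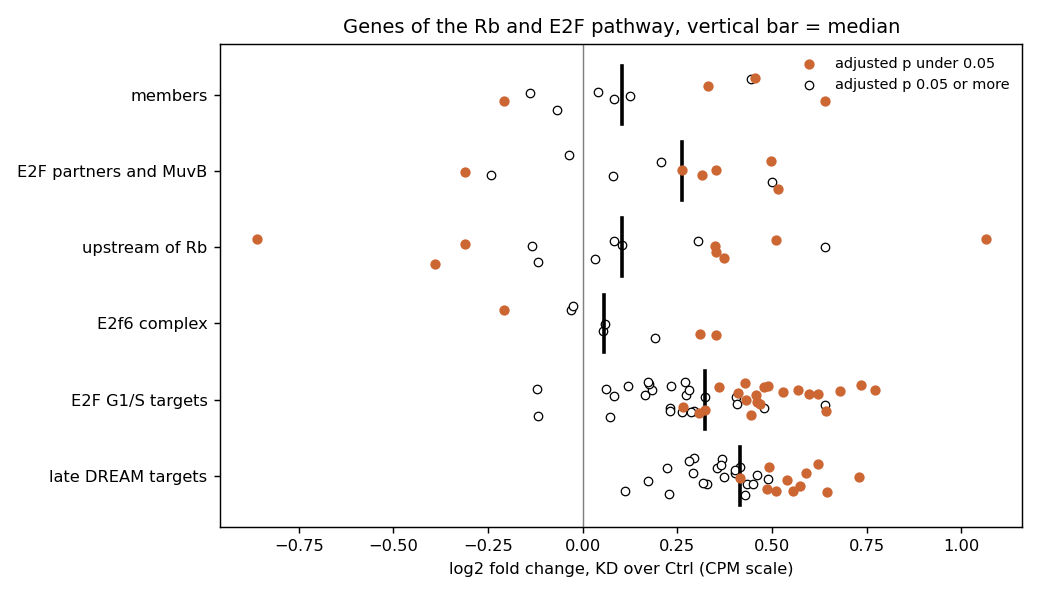
Log2 fold change, KD over Ctrl, of the 10 genes and of each list of the pathway, 1 point per gene (filled where the adjusted p is under 0.05), with the median as a vertical bar. The points of the late DREAM targets all lie to the right of 0 around a median of 0.41, whereas the genes upstream of Rb reach from -0.86 to 1.06.

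The sums of the remaining marker lists were low or overlapped between the groups. Oligodendrocyte lineage markers summed to 313 to 420 TPM in Ctrl and 270 to 338 TPM in KD. Of these 6 genes 2 were lower, Olig1 and Cspg4, where 11.9% of all genes were. With the replicate block 4 were lower, where 18.1% of all genes were. Astrocyte markers summed to 51.6 to 59.6 and 50.2 to 61.2 TPM. Of 3 mural and meningeal genes tested, 1 was higher, Pdgfrb (log2 0.72, adjusted p = 0.0318), where 12% of all genes were. Microglia markers summed to at most 6.03 TPM, mural and meningeal markers to 9.12, endothelial markers to 1.56 and erythroid markers to 1.23 TPM in any library, with all 4 erythroid genes at 2 counts or fewer.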

How the data were processed

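RNA from 3 Ctrl and 3 KD cultures was made into mRNA libraries and sequenced on the DNBSEQ platform. The submitters' processing notes name HISAT2 2.2.1, Bowtie2 2.4.5 and RSEM 1.3.1 with GRCm38 and mm10. The deposited estimated counts, as RSEM divides reads between similar genes, were whole numbers for 89.3% to 89.9% of values per library and were rounded, since the design had assumed whole counts. The deposited TPM values were scaled by the authors for length and depth, and 12 further columns, with FPKM and group averages, were not used.

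Genes passing filterByExpr (minimum count 10) were fitted with edgeR 4.0.16 (R 4.3.3) by the quasi-likelihood test with TMM scaling, over the 6 libraries and with no covariate. SE is the log2 fold change divided by the root of F, and adjusted p-values are Benjamini-Hochberg values over all genes tested (threshold 0.05). The script was tested on simulated data. Alternatives were other scalings and filters, DESeq2 1.42.0, limma 3.58.1, left-out libraries and a replicate block. Groups and replicate numbers came from the titles, and each Ctrl column was given to the WT title of the same number. The labels speak of biological replicates in 3 sequencing batches. The p-values of the main fit measure the spread between the libraries of a group, with any spread between batches or replicate numbers included. Deviations from group means correlated at 0.35, 0.32 and 0.18 for the same number and at -0.28 to -0.02 otherwise. The fit with the replicate block takes this pairing into account, and the main fit does not. The fit without the block remained the main one. The blocked value is given where it changes a call of the 10 genes or a printed count over a list. The 10 genes, the lists (6 of pathway genes, others of cell type markers) and the tests were chosen with earlier results of these data known. Named were the 10 genes, Ybx1 and, from each pathway list with 4 or more tested genes, the 4 with the smallest p. Mybl1, Tfdp2, Ccne1, Ccne2, Pax6, Hes1, Fabp7, other genes of the short lists and the sums with Rbl2 were named after their values were seen. The same holds for Cdk2, Ccnd2, Cdkn1c and Cdkn2d upstream of Rb and for the markers Olig1, Cspg4 and Pdgfrb. Protein sequences were not used here.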

Additional observations from a re-analysis of the deposited data

How the results depend on the processing

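Each gene was read under 18 alternatives, which were refits apart from the main fit read at an adjusted p under 0.01. Rb1 was called in 17 of them, E2f2 in 12, Rbl1 in 9, E2f3 in 6 and E2f7 in 1, and E2f1, E2f4, E2f5, E2f6 and E2f8 in 0. The replicate block changed no call of the 10 genes other than that of E2f7. The number of the 10 genes called higher, 3, was 0 without the second pair and 1 at an adjusted p under 0.01, and that called lower, 1, was 0 under each of these, with no filter, with DESeq2 and with limma-trend on TPM (pseudocount 1 or 0.1). Leaving out 1 library gave 1 to 3 higher and 0 lower. Over all genes, 1646 higher and 1631 lower became 2539 and 2470 with the block, 135 and 93 without the second pair and 629 and 634 at the stricter threshold, the lower calls became 1072 and 1063 with limma-trend on TPM (pseudocount 1 and 0.1), and without 1 library they ranged from 779 to 1612 and 797 to 1583. G1 to S targets called higher (21) numbered 31 with the block, 1 without the second pair and 3 at the stricter threshold, and 6 to 19 without 1 library. Late targets (11) numbered 28 with the block, 0 and 1 under the other settings, and 2 to 13 without 1 library. The direction reversed for E2f1 without KD 1 (-0.10), for E2f5 without KD 2 (0.03) and without the second pair (0.00), and for E2f8 without Ctrl 3 (-0.03) or KD 1 (-0.24). Without 1 library these genes ranged from -0.10 to 0.17, -0.16 to 0.03 and -0.24 to 0.17. The activator over repressor ratio (log2 -0.04) was -0.09 without E2f6, -0.07 on summed CPM and -0.07 to -0.01 without 1 library. Fits without libraries had fewer samples, and for the other changes the cause was not tested.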

Other observations

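Ratios within the family were computed after the values were seen and are given as values. E2f2 over E2f3 was 0.162, 0.150 and 0.128 in Ctrl 1 to Ctrl 3 and 0.339, 0.260 and 0.221 in KD 1 to KD 3 on the TPM scale, so that E2f2 took 7.97 ± 0.784% of the activator transcripts in Ctrl and 12.8 ± 1.45% in KD (SD, n = 3). E2f3 took 54.5 ± 1.04% and 47.4 ± 4.98%, and E2f1 37.5 ± 0.267% and 39.8 ± 3.68%. The groups did not overlap for E2f2 or E2f3 and did for E2f1.

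Of the DP partners, Tfdp2 over Tfdp1 came to 0.0865 ± 0.00831 in Ctrl and 0.137 ± 0.0109 in KD, although Tfdp1 remained the more abundant in every library. Rb1 and Rbl1 together over E2f1 to E2f3 came to 1.32, 1.16 and 1.21 in Ctrl and 1.42, 1.66 and 1.70 in KD, with every KD library above every Ctrl library. E2f4 and E2f5 together stood at 66.1 ± 1.87 TPM in Ctrl and 71.5 ± 3.06 TPM in KD, without overlap on the TPM scale. In summed CPM these groups overlapped, with KD 2 below Ctrl 2 and Ctrl 3. Over all genes the median log2 fold change was 0.046 with limma-trend on TPM (pseudocount 1) and -0.001 in the main fit. E2f7 and E2f8 together stood at 7.72 ± 0.321 TPM in Ctrl and 9.21 ± 2.55 TPM in KD, with overlap.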
